A study of Mus musculus with 35 samples.

Results

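Carmofur was compared with control in 9 mouse colon tumour organoid libraries, 3 of carmofur-treated organoids and 6 labelled as controls, out of 35 libraries in the whole table and 27 in the carmofur experiment. The members were chosen by library number: the carmofur libraries numbered 201137 to 201139 (carmofur replicates 13 to 15) and the control libraries numbered 201131 to 201133 (control replicates 7 to 9) and 201140 to 201142 (control replicates 10 to 12). These numbers are called the third block here, and the other 2 blocks of the experiment hold 3 controls and 6 carmofur libraries each. No measured value entered this choice. Treated and control organoids all have the genotype given as AKP and come from mouse colon. The labels give the genotype only by this abbreviation, which is in common use for engineered intestinal tumour organoids. Carmofur dose, exposure time and vehicle are not analysed here, since the labels used do not state them. Nothing in the labels says whether the replicates were separate cultures or organoid lines from separate mice, so the p-values cover only how far these libraries vary, and that variation may be technical. RNA was selected by its poly(A) tail before strand-marking library preparation.

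Carmofur is a carbamoyl derivative of fluorouracil. It was developed as an orally given precursor of that antimetabolite, which blocks thymidylate synthase and enters RNA and DNA, and it also inhibits acid ceramidase, the lysosomal enzyme that splits ceramide into sphingosine and a fatty acid. Ceramides are the core lipids of all sphingolipids and act as stress signals. The series compares fatty acid and ceramide changes for their effect on the transcripts of AKP organoids, with a named interest in the revival programme, a set of genes that injured intestinal epithelium and some tumour cells switch on as they leave the normal crypt stem cell state.

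Library totals in the third block ran from 4156184 to 9541618 counts, and 3 counts corresponded to 0.314 to 0.722 CPM (counts scaled to a common library size with TMM factors). Control 9 was the shallowest library. Pairs of replicates within a group differed by more than sampling noise (chi-square per degree of freedom 30.7 to 42.5), so none was a repeat deposit. Epithelial transcripts were present in every library: Krt8 lay between 246 and 337 CPM in controls, and the colonocyte genes Car1 and Car2 were among the abundant transcripts. Other defining transcripts of the normal colon were listed at 0 in all 9 libraries, among them the goblet cell mucin Muc2 and the mature colonocyte genes Car4, Slc26a3 and Aqp8. Markers of non-epithelial cells were mostly listed at 0 in all 9: 11 of 14 fibroblast, 12 of 16 immune and 6 of 12 endothelial or blood markers, among them Col1a1, Ptprc and Cdh5. Their summed levels were 3.79 to 52.5 CPM in controls and 9.4 to 15.5 CPM with carmofur for fibroblasts, 104 to 224 and 70.5 to 200 CPM for immune cells, and 11.1 to 20.6 and 17.5 to 21.9 CPM for endothelium and blood. Nearly all of the fibroblast sum was Vim, and most of the endothelial and blood sum was Pecam1. The immune sum was mostly Cd14 (74.7 to 163 CPM in controls, 39 to 118 with carmofur) and Cd68 (28.5 to 60.6 and 7.68 to 80.2). In bulk RNA, fewer cells of a type and less RNA per cell cannot be told apart. The ribosomal protein share of counts was 13.2% ± 0.834 (SD, n = 6) in controls and 11.6% ± 0.18 (SD, n = 3) with carmofur (exact permutation test, two-sided p = 0.0238, where 84 arrangements allow no value below 0.0119). The mitochondrial transcript share was 6.02% ± 0.354 in controls (n = 6) and 5.54% ± 0.144 with carmofur (n = 3; exact permutation test, two-sided p = 0.0357). The 6 controls were 2 distinct sets in both shares. The permutation tests treat all libraries as interchangeable, which these sets are not, so no treatment effect is read from the 2 p-values. Controls 7 to 9 had mitochondrial shares of 6.28 to 6.41% and controls 10 to 12 of 5.58 to 5.78%, and only the latter overlapped the 5.45 to 5.7% of the carmofur libraries, so the pooled difference rests on controls 7 to 9. The ribosomal protein shares were 13.7 to 14.2%, 12.2 to 12.7% and 11.4 to 11.7% in the same order, without overlap.

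Many glycolytic and hypoxia-induced genes fell with carmofur, as did a smaller share of integrated stress response genes and endoplasmic reticulum chaperones. Part of the mitotic and replication genes, several revival markers and the colonocyte enzyme Car1 rose. Of 11039 genes tested, 588 (5.33%) passed an adjusted p of 0.05 by edgeR's quasi-likelihood test, 342 (3.1%) of them higher with carmofur and 246 (2.23%) lower. At least a 2-fold size was reached by 218 of the rises and 106 of the falls. In 570 of the 588 genes all 3 carmofur libraries lay beyond all 6 controls. That separation held for 775 genes upwards (7.02% of all tested) and 556 downwards (5.04%), and an unadjusted p under 0.05 for 1802. The median log2 fold change of all genes was -0.04. The count depended on the treated libraries: it was 317 without carmofur 13, 331 without carmofur 14 and 305 without carmofur 15. The carmofur libraries form 1 run of consecutive numbers between both control runs, so library run and treatment cannot be told apart.

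**Figure D1:**
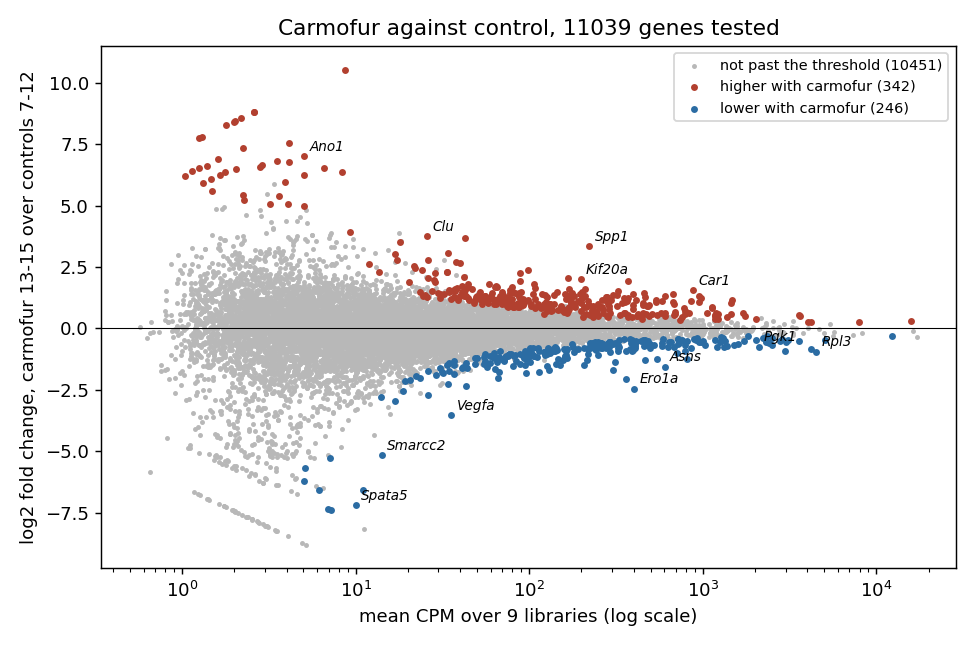
Log2 fold change of carmofur (3 libraries) over control (6 libraries) on the vertical axis against the mean CPM of the 9 libraries on a log axis, 1 point per gene tested; red points (342) were higher and blue points (246) lower with carmofur past the threshold. Large fold changes at the left come from genes with few counts in one of the groups, whereas Ero1a, Asns and Rpl3 fell at high abundance.

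The largest group of falls was in glycolysis and the hypoxia response. Cells short of oxygen stabilise the HIF transcription factors, which raise glucose uptake, most steps of glycolysis, the angiogenic factor Vegfa and mitophagy receptors. Of 35 listed members, all tested, 19 fell and 1 rose, and the median log2 fold change was -0.93 against -0.04 for all genes. When 1 library was left out, between 13 and 20 members fell. Against controls 7 to 9 alone 15 fell (median -0.73), and against controls 10 to 12 alone 19 fell (median -0.96).

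Ero1a, the oxidase that passes electrons from protein disulfide isomerase to oxygen and a known hypoxia-induced gene, had the lowest p of all genes (chromosome 14, 45283087 to 45318771, mm10). It stood at 119, 92.9 and 93.1 CPM in the carmofur libraries and at 482 to 636 (median 547) CPM in the controls. No carmofur library came near any control, and the level was 5.45-fold lower (log2 fold change -2.45, SE 0.15, adjusted p = 8.44e-07). Bnip3, a mitophagy receptor of the outer mitochondrial membrane, was at 391, 416 and 467 CPM with carmofur and 878 to 1239 (median 980) CPM in controls (log2 fold change -1.24, SE 0.12, adjusted p = 4.56e-05). Its relative Bnip3l fell as well, from 872 to 1039 (median 920) CPM to 437, 506 and 532 (log2 fold change -0.94, SE 0.10, adjusted p = 0.000103). Both receptors separated the groups completely.

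Vegfa, the main vascular growth factor, was the steepest of the falls past the threshold in this list (chromosome 17, 46016993 to 46032369, mm10). The carmofur libraries had 3.29, 3.36 and 6.52 CPM and the controls 18.4 to 71.1 (median 53.5) CPM, with control 7 the lowest of the controls and still above every treated library (log2 fold change -3.53, SE 0.50, adjusted p = 0.000543). Among the glycolytic enzymes, Gapdh was at 1863, 1856 and 1827 CPM with carmofur against 2976 to 4085 (median 3538) CPM in controls (log2 fold change -0.93, SE 0.10, adjusted p = 0.000103). Gapdh is often used as a reference transcript, and here its controls also differed by set, controls 10 to 12 being the higher. For Actb, another such reference, the log2 fold change was -0.04 (adjusted p = 0.922). The riser of the list was Slc2a3, a high-affinity glucose transporter, picked out after its values were seen. It reached 539, 563 and 517 CPM with carmofur from 154 to 277 (median 199) CPM in controls (log2 fold change 1.37, SE 0.18, adjusted p = 0.000337). Ldha, which makes lactate and is also named after the fact, was just outside the threshold (log2 fold change -0.20, SE 0.06, adjusted p = 0.0528). Gapdh and other glycolytic genes have many processed pseudogenes, and Salmon shares out reads that match several copies by estimate, so their absolute levels are uncertain.

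**Figure D2:**
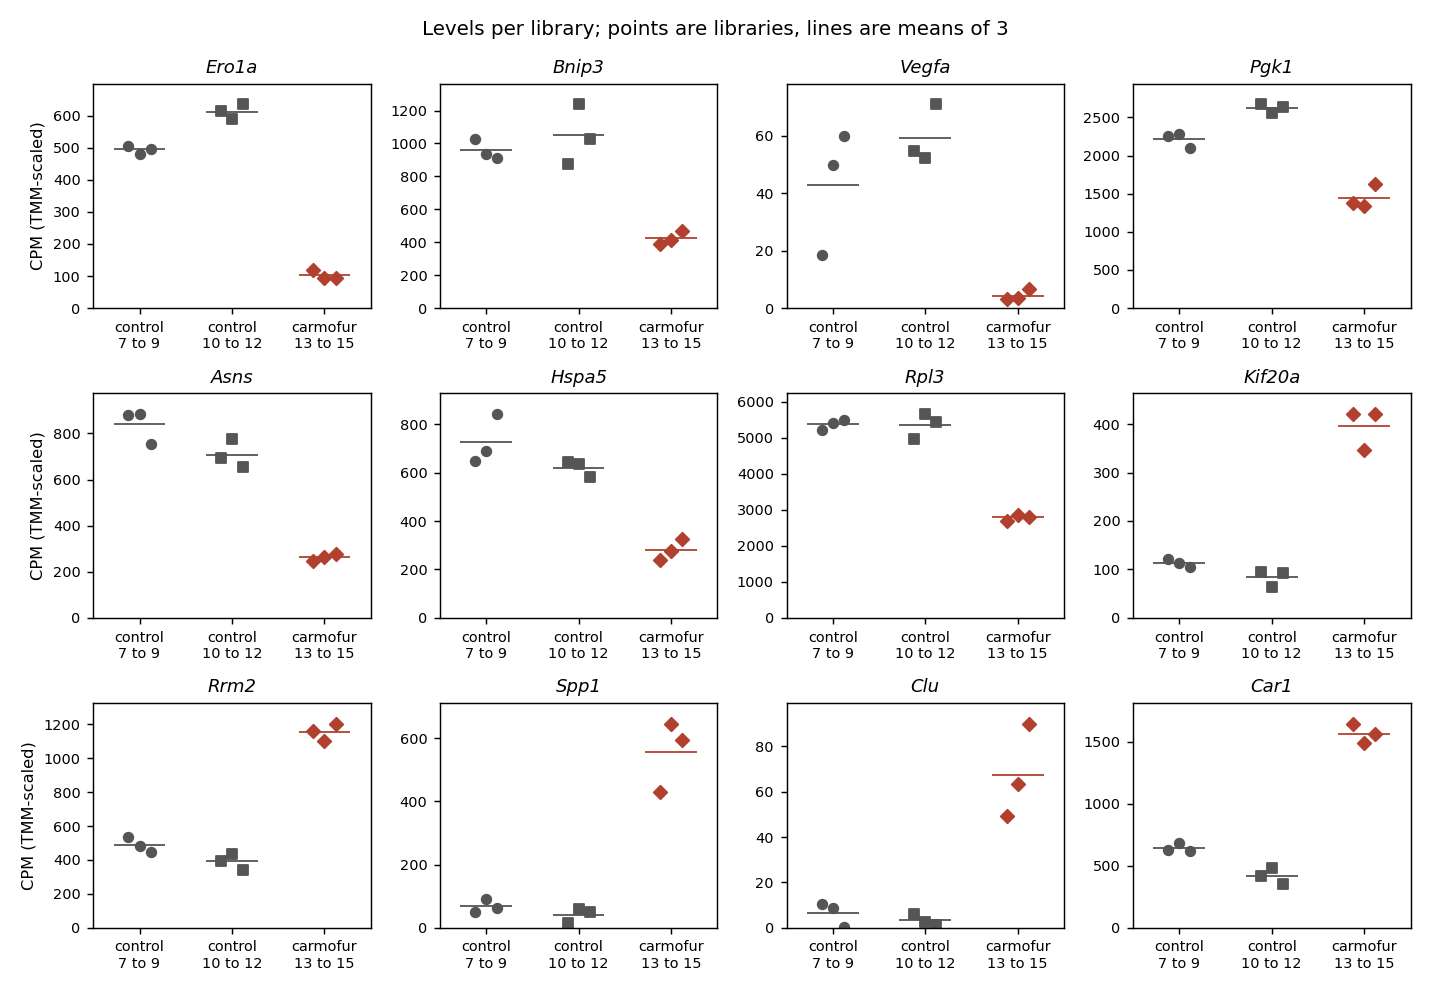
CPM of 12 genes in each of the 9 libraries, with controls 7 to 9 as circles, controls 10 to 12 as squares, carmofur 13 to 15 as red diamonds, and lines at the mean of 3; each vertical axis starts at 0. Ero1a, Bnip3, Vegfa, Pgk1, Asns, Hspa5 and Rpl3 were lower in every carmofur library than in any control, and Kif20a, Rrm2, Spp1, Clu and Car1 were higher.

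The integrated stress response is the arm of gene control that follows phosphorylation of the initiation factor eIF2: general translation drops, the transcription factor ATF4 is made, and ATF4 induces amino acid synthesis, amino acid transport and transfer RNA charging. Its promoters often carry a composite C/EBP-ATF site with the core TGATGNAA. The unfolded protein response of the endoplasmic reticulum works beside it, through ATF6 and XBP1 acting on a split element, CCAAT and CCACG with 9 bases between them. RefSeq promoter windows (GRCm38.p6, the patch release of the mm10 assembly; 250 bases before to 50 after the start, both strands searched for both motifs) are shown upstream of the start for 3 of the fallen members described next, because each holds one of these elements, a choice made after the matches were seen. Capitals mark the TGATGNAA match in Asns (chr6:7693210-7693459, minus strand), and the paired CCAAT and CCACG of Hspa5 (chr2:34771840-34772089, plus strand) and Hsp90b1 (chr10:86705445-86705694, minus strand), the last with 1 match on each strand.
Asns: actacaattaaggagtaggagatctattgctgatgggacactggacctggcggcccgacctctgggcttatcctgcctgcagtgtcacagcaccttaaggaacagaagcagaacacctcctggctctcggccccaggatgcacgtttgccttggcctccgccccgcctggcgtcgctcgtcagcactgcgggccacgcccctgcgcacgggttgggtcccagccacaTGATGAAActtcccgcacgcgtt
Hspa5: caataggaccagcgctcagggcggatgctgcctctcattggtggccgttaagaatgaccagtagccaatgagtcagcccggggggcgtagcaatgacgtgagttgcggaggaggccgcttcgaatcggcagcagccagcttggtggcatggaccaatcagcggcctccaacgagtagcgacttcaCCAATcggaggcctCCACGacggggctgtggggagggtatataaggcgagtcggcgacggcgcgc
Hsp90b1: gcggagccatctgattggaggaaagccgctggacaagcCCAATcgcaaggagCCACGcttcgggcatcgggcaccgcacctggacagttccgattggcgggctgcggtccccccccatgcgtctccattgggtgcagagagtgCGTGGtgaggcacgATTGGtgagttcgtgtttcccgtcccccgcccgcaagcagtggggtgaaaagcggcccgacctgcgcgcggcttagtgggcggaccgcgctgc
With the RefSeq start of the window as base 0, the Asns match runs from base -23 to -16 and the Hspa5 pair from -65 to -47. The Hsp90b1 pairs run from -212 to -194 and from -107 to -89. The GENCODE positions given below for Asns and Hspa5 begin upstream of these RefSeq starts, and their matches lie inside those spans. TGATGNAA occurred in 1219 of 27025 RefSeq genes (4.51%) and in 224 of the 8422 tested genes that had a window (2.66%). It was in 9 of the 31 tested stress response members with a window (29%), and in 2 of 6 of those that fell, Asns and Slc7a11. The split element occurred in 37 of all genes (0.137%) and 13 of those tested (0.154%), and in 8 of 31 chaperone list members (25.8%), 3 of the 7 that fell among them. A match is a description of the letters and not evidence of binding, and a window without one shows only that these letters are not in it.

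Of 37 stress response genes tested (40 listed), 9 fell and none rose, with a median log2 fold change of -0.78. Against controls 7 to 9 alone 5 fell (median -0.73), and against controls 10 to 12 alone 8 fell (median -0.71). Without carmofur 13 the count was 5, and without carmofur 15 it was 4. Asns, asparagine synthetase, had the lowest p (chromosome 6, 7675169 to 7693254, mm10). Its carmofur libraries held 247, 265 and 276 CPM and its controls 655 to 885 (median 767) CPM, a 2.95-fold lower level with no overlap (log2 fold change -1.56, SE 0.13, adjusted p = 1.14e-05). Atf4 itself, the transcription factor of the pathway, was at 34.3, 32.6 and 55.7 CPM with carmofur and 92.5 to 130 (median 117) CPM in controls (log2 fold change -1.46, SE 0.24, adjusted p = 0.00215). Eif4ebp1, a repressor of cap-dependent initiation that ATF4 induces, fell from 173 to 226 (median 197) CPM to 82.3, 94.8 and 85.9 (log2 fold change -1.18, SE 0.16, adjusted p = 0.000337). Ndrg1, which belongs to both the hypoxia and the stress response lists, fell too (log2 fold change -1.26, SE 0.17, adjusted p = 0.000352). Each of these 4 had all treated libraries below all controls. The pro-death factor Ddit3 and its target Trib3 are commonly read as markers of the same response. Ddit3 was at 13.5, 14.5 and 11.8 CPM with carmofur and 11.4 to 35.7 (median 22.1) CPM in controls (log2 fold change -0.69, adjusted p = 0.628). Trib3 was low and scattered, at 0.157, 0.56 and 8.1 CPM against 2.01 to 19.1 (median 9.95) CPM (log2 fold change -1.72, adjusted p = 0.607), so no difference was detectable at this depth.

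Cytosolic aminoacyl-tRNA synthetases, which load amino acids onto transfer RNAs, also fell in part. Of 23 tested, 6 fell and none rose (median log2 fold change -0.48). The count was 3 without carmofur 13, without carmofur 14 and without carmofur 15, and 3 against controls 7 to 9 alone. Seryl-tRNA synthetase, Sars, was at 181, 183 and 198 CPM with carmofur and 273 to 377 (median 325) CPM in controls (log2 fold change -0.79, SE 0.14, adjusted p = 0.00249). Its groups did not overlap. Gars, Rars and Aars fell by 0.99, 0.48 and 1.11 on the log2 scale. These calls were lost with 1 library left out: Gars without carmofur 13 (adjusted p = 0.0629), Rars without carmofur 14 (0.0604) or carmofur 15 (0.0898), and Aars without carmofur 13 (0.0719) or carmofur 14 (0.0753). TGATGNAA was present in the windows of Aars, Gars and Yars, 3 of the 4 fallen synthetases with a window, and in 5 of 16 tested synthetases with one (31.2%). Among 19 amino acid transporters, 2 fell and 1 rose, beside 2.23% lower and 3.1% higher among all genes. Slc38a1, a sodium-coupled glutamine carrier, fell from 171 to 219 (median 195) CPM to 62.5, 111 and 67 (log2 fold change -1.28, SE 0.20, adjusted p = 0.00145). The cystine carrier Slc7a11 fell from 185 to 294 (median 208) CPM to 146, 107 and 126 (log2 fold change -0.83, SE 0.19, adjusted p = 0.0174), a call lost without carmofur 14 (adjusted p = 0.106) or carmofur 15 (0.0787). Slc6a14, a broad amino acid importer, was the riser (log2 fold change 2.77, SE 0.74, adjusted p = 0.0422) and lost its call in 6 of the 9 omissions, with adjusted p up to 0.201 without carmofur 13.

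Chaperones and folding enzymes of the endoplasmic reticulum fell in 7 of 39 tested members and rose in none (median log2 fold change -0.40). The count was 4 without carmofur 13. Ero1a, described above, belongs to this list as well. Hspa5, the BiP chaperone that holds the stress sensors inactive (chromosome 2, 34771970 to 34777547, mm10), was at 237, 278 and 326 CPM with carmofur and at 583 to 842 (median 646) CPM in controls. Every treated library was below every control, and the level was 2.4-fold lower (log2 fold change -1.26, SE 0.14, adjusted p = 0.000103). Hsp90b1, the resident HSP90 of this compartment, had 511, 567 and 558 CPM with carmofur and 724 to 933 (median 825) CPM in controls (log2 fold change -0.59, SE 0.10, adjusted p = 0.00278). Selenok, a selenoprotein of the degradation complex, had 908, 1024 and 935 CPM and 1425 to 1684 (median 1611) CPM (log2 fold change -0.73, SE 0.09, adjusted p = 0.000142). Both were lower without overlap. The members did not move as one: Calr and Pdia3, 2 abundant folding proteins named after their values were seen, had log2 fold changes of -0.10 and -0.10 (adjusted p = 0.906 and 0.917), and the transcription factor gene Xbp1 had -0.17 (adjusted p = 0.936). Cytosolic heat shock genes, controlled by a different factor, HSF1, gave 2 rises among 21, beside 3.1% higher among all genes. Against controls 10 to 12 alone 5 rose, and 1 rose without carmofur 13 or carmofur 15. Without carmofur 14 or control 12 there was 1 fall. Dnaja1, an HSP70 partner, rose from 461 to 654 (median 585) CPM to 915, 910 and 924 (log2 fold change 0.68, SE 0.12, adjusted p = 0.00326). Cryab, a small heat shock protein, was at 97.8, 49.4 and 68.2 CPM against 2.6 to 27.8 (median 12.6) CPM (log2 fold change 2.29, SE 0.51, adjusted p = 0.0152) and lost its call without carmofur 13 (adjusted p = 0.11) or carmofur 15 (0.0574).

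**Figure D3:**
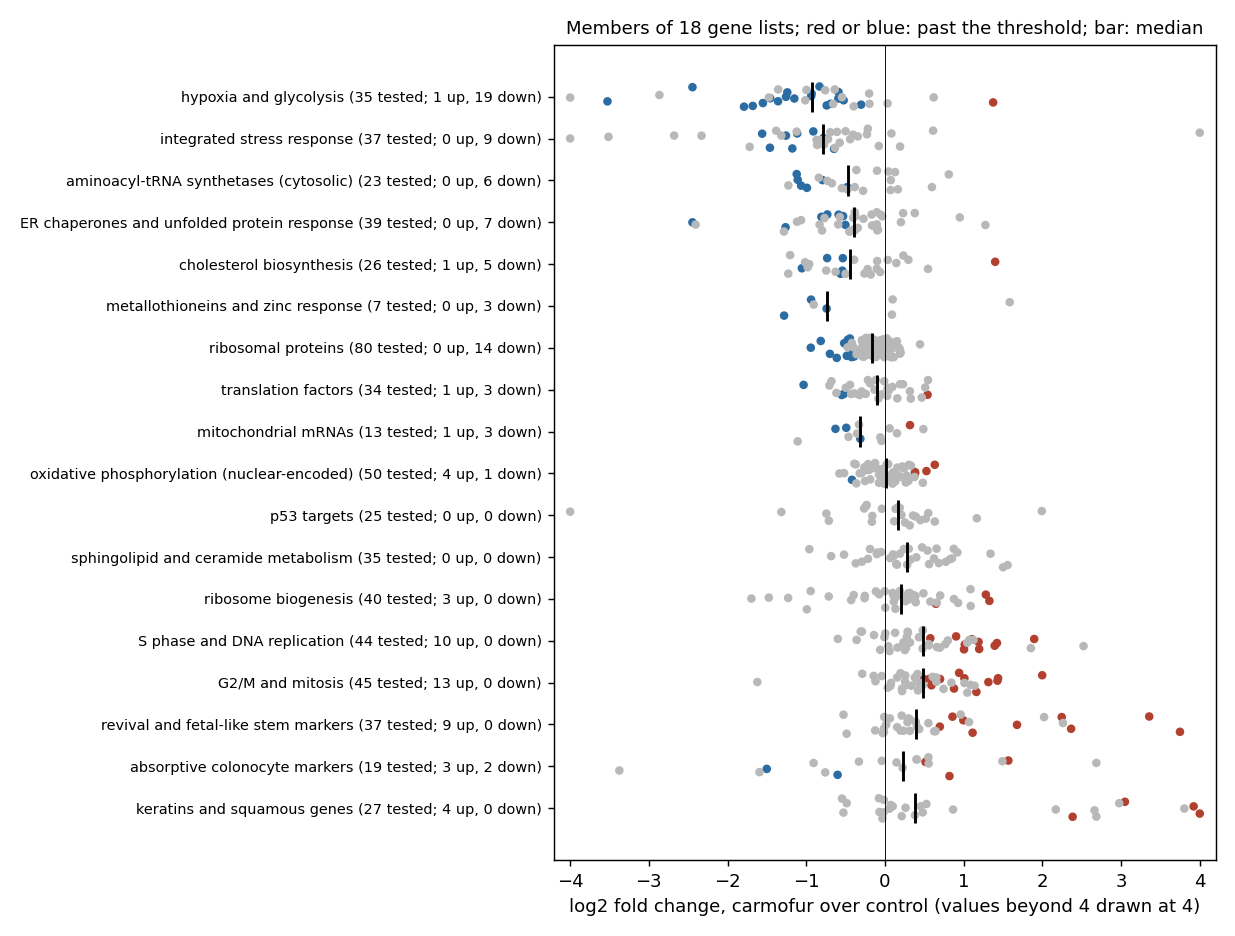
Log2 fold change of carmofur over control for each tested member of 18 gene lists, 1 point per gene, with points past the threshold in red (higher) or blue (lower), others grey, and a black bar at the list median; values beyond 4 are drawn at 4. The hypoxia, stress response and chaperone medians lie at -0.93, -0.78 and -0.40, and the replication and mitosis medians at 0.48.

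Ribosomal protein genes are the most abundant class of messages in growing cells. Of 80 tested, 14 fell with carmofur and none rose, and the median log2 fold change was -0.17. This list depended on which controls were used. Against controls 7 to 9 alone 37 fell and the median was -0.34. Against controls 10 to 12 alone 11 fell, 7 rose and the median was -0.01. Controls 10 to 12 were themselves lower than controls 7 to 9 in 23 of the 80 genes. The count of falls was 7 without carmofur 13, 7 without carmofur 14 and 4 without carmofur 15. Rpl3, a core protein near the peptidyl transferase centre, had like levels in both control sets (chromosome 15, 80077791 to 80091868, mm10). It stood at 2706, 2873 and 2804 CPM with carmofur and at 4974 to 5669 (median 5433) CPM in controls, a 1.92-fold lower level (log2 fold change -0.94, SE 0.07, adjusted p = 3.43e-06). The treated libraries were far below all controls, and the log2 fold change was -0.94 against either set. Rpl10a had 628, 512 and 569 CPM against 864 to 1290 (median 937) CPM (log2 fold change -0.82, SE 0.13, adjusted p = 0.00146). Rps18 fell by 0.47 on the log2 scale. Ribosomal protein genes have many near-identical pseudogene copies, so how Salmon divided their reads is uncertain. Of 34 translation factors, 3 fell and 1 rose (3 rose against controls 10 to 12 alone), beside 2.23% lower and 3.1% higher among all genes. Eef1a1, which delivers aminoacyl-tRNA to the ribosome, was at 2268, 2348 and 2268 CPM with carmofur and 3054 to 3667 (median 3285) CPM in controls, without overlap (log2 fold change -0.55, SE 0.08, adjusted p = 0.000615). Eef2, the translocase, fell by 0.52 on the log2 scale and lost its call without carmofur 14 (adjusted p = 0.0669). Eif3l was the riser (log2 fold change 0.54, SE 0.12, adjusted p = 0.0132), and its call was lost without carmofur 14 (adjusted p = 0.0886) or carmofur 15 (0.0745).

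Ribosome biogenesis, which builds new subunits in the nucleolus, had 3 rises among 40 genes and none lower (median 0.20), beside 3.1% higher among all genes. The count was 2 against controls 7 to 9 alone, and against controls 10 to 12 alone 8 rose. The median was 0.03 against controls 7 to 9 and 0.41 against controls 10 to 12. Utp4, a processing factor of the small subunit, rose from 95.5 to 132 (median 109) CPM to 325, 227 and 279 (log2 fold change 1.33, SE 0.16, adjusted p = 0.000145). Nip7 and Ftsj3 were the others. Without carmofur 13 the adjusted p was 0.0728 for Nip7 and 0.0909 for Ftsj3, without carmofur 15 it was 0.0514 and 0.124, and the list had 1 rise without either of these, and 5 without control 7. Mitochondrial ribosomal proteins had 5 rises among 78 and none lower, beside 3.1% higher among all genes. With controls 7 to 9 alone 3 rose and 1 fell, and against controls 10 to 12 alone 11 rose. Mrps26 was the clearest, at 2491, 2283 and 2278 CPM with carmofur and 842 to 1282 (median 1016) CPM in controls (log2 fold change 1.18, SE 0.13, adjusted p = 8.48e-05). Controls 7 to 9 lay between the carmofur libraries and controls 10 to 12 for this gene. The list's count was 3 without carmofur 13, control 9, control 10 or control 11, and 2 without carmofur 14 or carmofur 15.

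Some genes of cell division rose. Mitotic genes are switched on before division by the DREAM and FOXM1 factors, and replication genes before S phase by E2F. Of 45 mitotic genes tested, 13 rose and none fell (median 0.48), and between 9 and 13 rose when 1 library was left out. Kif20a, a kinesin of the cleavage furrow, was at 421, 346 and 420 CPM with carmofur and 64.8 to 122 (median 100) CPM in controls. The treated libraries were 3.99-fold higher with a wide gap (log2 fold change 2.0, SE 0.18, adjusted p = 1.9e-05). Aurka, the spindle pole kinase, rose from 84.3 to 139 (median 117) CPM to 319, 299 and 297 (log2 fold change 1.44, SE 0.16, adjusted p = 0.000103). Ccnb1, the cyclin that drives mitotic entry, rose from 777 to 1059 (median 859) CPM to 1662, 1620 and 1584 (log2 fold change 0.88, SE 0.10, adjusted p = 0.000112). Nusap1, a spindle microtubule protein, rose from 323 to 374 (median 339) CPM to 669, 626 and 690 (log2 fold change 0.94, SE 0.10, adjusted p = 6.63e-05). None of these 4 had overlapping groups. Mki67, the usual proliferation marker, did overlap: it was at 132, 218 and 174 CPM with carmofur and 103 to 199 (median 146) CPM in controls (log2 fold change 0.22, adjusted p = 0.749). Among 44 replication genes 10 rose and none fell (median 0.48). That count was 4 without carmofur 13, 3 without carmofur 14, 4 without carmofur 15, and 5 against controls 7 to 9 alone. Mcm4, a subunit of the replicative helicase, rose from 42.7 to 80.1 (median 67) CPM to 127, 168 and 126 (log2 fold change 1.11, SE 0.22, adjusted p = 0.00635) and lost its call without carmofur 14 (adjusted p = 0.0604). Ccne2, the cyclin of the G1 to S transition, rose from 127 to 270 (median 173) CPM to 330, 400 and 398 (log2 fold change 1.01, SE 0.21, adjusted p = 0.00891), a call lost without carmofur 14 (adjusted p = 0.0504) or carmofur 15 (0.0533).

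The enzymes that handle fluoropyrimidines include the targets of the fluorouracil part of carmofur. Of 28 tested, 3 rose and none fell, beside 3.1% higher and 2.23% lower among all genes. Rrm2 and Tyms also belong to the replication list above and count among its risers. Rrm2, the small subunit of ribonucleotide reductase, which makes deoxynucleotides, was at 1159, 1099 and 1204 CPM with carmofur and 344 to 533 (median 442) CPM in controls (chromosome 12, 24708241 to 24714146, mm10; log2 fold change 1.39, SE 0.12, adjusted p = 1.9e-05). All 3 treated libraries were above all controls. Umps, the enzyme that converts orotate, and fluorouracil, to the nucleotide, rose from 35.9 to 73.9 (median 53.9) CPM to 157, 151 and 132 (log2 fold change 1.39, SE 0.23, adjusted p = 0.00183). Tyms, thymidylate synthase, which the fluorinated nucleotide blocks, was at 659, 677 and 615 CPM against 375 to 504 (median 427) CPM (log2 fold change 0.58, SE 0.12, adjusted p = 0.01). Its treated libraries were all above the controls, but the call was lost without carmofur 13 (adjusted p = 0.0583) or carmofur 14 (0.059). DNA damage by antimetabolites commonly acts through p53. None of 25 p53 targets tested and none of 30 DNA repair genes passed the threshold, against 5.33% of all genes. Cdkn1a, the cell cycle inhibitor induced by p53, was at 16.1, 27.7 and 49 CPM with carmofur and 9.05 to 39.7 (median 29.2) CPM in controls (log2 fold change 0.12, adjusted p = 0.965). Mdm2, the ligase that degrades p53, was at 18, 16.5 and 27.7 CPM against 7.56 to 24.9 (median 17.4) CPM (adjusted p = 0.886). Both overlapped widely. Levels of Apc and Trp53 also overlapped between the groups, with adjusted p of 0.833 and 0.978. Birc5, an apoptosis inhibitor that is also a mitotic protein, rose from 389 to 709 (median 492) CPM to 932, 1152 and 1003 (log2 fold change 1.01, SE 0.16, adjusted p = 0.00156).

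Revival markers rose in 9 of 37 tested genes and fell in none (median 0.39), and between 6 and 12 rose when 1 library was left out. The number was 9 against controls 7 to 9 alone, and against controls 10 to 12 alone 15 rose. Spp1, osteopontin, was at 430, 645 and 594 CPM with carmofur and 15.5 to 90.3 (median 54.9) CPM in controls (chromosome 5, 104435118 to 104441050, mm10). Treated levels were 10.3-fold higher with no overlap (log2 fold change 3.36, SE 0.33, adjusted p = 4.56e-05). Clu, clusterin, the gene that names revival stem cells (chromosome 14, 65968483 to 65981547, mm10), was at 49.4, 63.2 and 90 CPM against 0.503 to 10.6 (median 4.44) CPM (log2 fold change 3.75, SE 0.66, adjusted p = 0.00309). Its controls reached down to near 0 in control 9, so the size of the rise is uncertain, but no treated library overlapped a control. Tm4sf1, a tetraspanin-like surface protein, rose from 18.8 to 61.6 (median 37.4) CPM to 206, 148 and 210 (log2 fold change 2.25, SE 0.28, adjusted p = 0.000217). Il1rn, the interleukin-1 receptor antagonist, rose from 215 to 326 (median 262) CPM to 546, 518 and 653 (log2 fold change 1.11, SE 0.13, adjusted p = 0.000137). Cd44, a hyaluronan receptor listed for both revival and crypt stem cells, rose from 62 to 128 (median 105) CPM to 216, 166 and 213 (log2 fold change 1.0, SE 0.21, adjusted p = 0.0122), and lost its call without carmofur 13 (adjusted p = 0.076) or carmofur 15 (0.0704). Of the 37 tested genes 14 had every carmofur library above every control, beside 7.02% of all genes. Anxa2, Ly6a and Anxa1, also commonly used markers of this state, did not pass the threshold. Anxa2 was at 2508 to 2596 CPM with carmofur and 1965 to 2368 CPM in controls, without overlap. Ly6a, or Sca-1, was at 1404, 1287 and 1361 CPM with carmofur and 1159 to 1560 (median 1367) CPM in controls (adjusted p = 0.988). Anxa1 was at 2967, 3220 and 3445 CPM against 2327 to 3475 (median 2675) CPM (adjusted p = 0.508), with controls 7 to 9 overlapping the treated libraries and controls 10 to 12 below them.

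Crypt-base stem cell genes had a median of -0.75 over 23 tested, and Cd44 was the only member past the threshold with all 9 libraries. Without control 9, the shallowest library, 2 members fell, and against controls 10 to 12 alone 1 fell. Lgr5, the receptor that defines these cells, was low in all libraries, at 19.3, 9.93 and 11.1 CPM with carmofur and 7.42 to 34.2 (median 9.19) CPM in controls (log2 fold change 0.04, adjusted p = 0.992). Ascl2, a stem cell transcription factor under Wnt control, was at 9.87, 12.2 and 18.8 CPM with carmofur and 26.9 to 50 (median 35.8) CPM in controls. All 3 treated libraries were below all controls, and the test missed the threshold narrowly (log2 fold change -1.41, SE 0.39, adjusted p = 0.0516). Myc was at 50, 35 and 55.7 CPM against 19.2 to 91.6 (median 53.8) CPM (adjusted p = 0.939). None of 22 YAP and TEAD targets, 24 MAPK and AP-1 genes or 10 EGF family genes passed, beside 5.33% called among all genes. Lists this short would hold few calls at that share, so nothing is read from the absence.

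Differentiation genes moved in both directions. Of 19 absorptive colonocyte genes 3 rose and 2 fell (3 and 1 against controls 7 to 9 alone, 6 and 3 against controls 10 to 12 alone). Car1, a carbonic anhydrase of surface colonocytes (chromosome 3, 14766216 to 14808368, mm10), was at 1647, 1489 and 1565 CPM with carmofur and 350 to 682 (median 549) CPM in controls. The treated level was 2.96-fold higher (log2 fold change 1.57, SE 0.17, adjusted p = 8.48e-05). Car2 was at 4437, 4425 and 4791 CPM against 2785 to 3635 (median 3217) CPM (log2 fold change 0.51, SE 0.08, adjusted p = 0.00159), and Ceacam1, an adhesion protein of the brush border, at 1028, 1173 and 1096 against 561 to 701 (median 605) CPM (log2 fold change 0.82, SE 0.10, adjusted p = 0.000148). All 3 separated the groups. Selenbp1, a methanethiol oxidase of mature colonocytes, fell from 119 to 286 (median 186) CPM to 63.6, 82 and 57.4 (log2 fold change -1.50, SE 0.26, adjusted p = 0.00251). The list had 1 fall, not 2, without control 9, 10, 11 or 12 or any of the carmofur libraries. Krt20, a keratin of differentiated colonocytes, was at 51.4, 36.9 and 26.7 CPM with carmofur and 0.128 to 11.3 (median 5.06) CPM in controls, separated but past no threshold (log2 fold change 2.69, SE 0.78, adjusted p = 0.063).

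Keratins and squamous genes, mostly of stratified epithelia, rose in 4 of 27 tested (median 0.38). Krt4, a keratin of oesophageal epithelium, rose from 27.9 to 54.9 (median 40.7) CPM to 208, 225 and 207 (log2 fold change 2.38, SE 0.21, adjusted p = 2.37e-05). Krt13, its partner, was at 39.8, 44.9 and 36.6 CPM against 0.148 to 10.3 (median 4.84) CPM (log2 fold change 3.05, SE 0.79, adjusted p = 0.0349), and Krt14, of basal cells, at 26.3, 22.8 and 25 CPM against 0.124 to 6.36 (median 0.638) CPM (log2 fold change 3.92, SE 1.06, adjusted p = 0.0443). These keratins had every treated library above every control. The Krt13 call was lost in 6 of 9 omissions (adjusted p up to 0.125 without carmofur 14) and the Krt14 call in 8 of 9 (up to 0.143 without carmofur 13). The list's count was 2 without carmofur 13, carmofur 14, carmofur 15 or control 11. Goblet, Paneth, enteroendocrine and tuft cell lists had no member past the threshold among 11, 6, 3 and 4 tested. Beside 5.33% called among all genes, these lists are too short for an absence of calls to be read.

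Sphingolipid enzymes, the pathway that a ceramidase inhibitor addresses, gave no call among 35 genes tested, beside 5.33% called among all genes. Against controls 10 to 12 alone 2 rose, without control 9 there was 1 rise, and without carmofur 13 there was 1 fall. Their median log2 fold change was 0.28 against -0.04 for all genes, with 25 positive and 10 negative values. The summed level of the listed genes was 1767 to 1989 CPM in controls and 2226 to 2250 CPM with carmofur, so the groups did not overlap. Such a separation was not particular to this list. Lysosomal genes summed to 4063 to 4527 CPM in controls and 5104 to 5418 CPM with carmofur. Mitochondrial ribosomal protein genes summed to 12540 to 15757 and 16452 to 16826 CPM, while the proteasome sums overlapped. Asah1, acid ceramidase, was at 462, 431 and 420 CPM with carmofur and 275 to 394 (median 375) CPM in controls. The 3 treated libraries were above all controls by a small margin, and the difference did not pass (log2 fold change 0.28, SE 0.13, adjusted p = 0.272). The alkaline ceramidases Acer2 and Acer3 overlapped, at 30.9, 28.8 and 11.3 and 51.4, 78.2 and 67.1 CPM with carmofur against 12.9 to 46.3 (median 20.7) and 31.5 to 75.8 (median 45.5) CPM in controls. Neutral ceramidase, Asah2, did not pass the filter on low counts. Ugcg, which makes glucosylceramide, had the lowest p in the list, and is named for that (log2 fold change -0.96, SE 0.30, adjusted p = 0.0952).

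Cholesterol synthesis fell in 5 of 26 genes and rose in 1. The factor SREBP2, made from Srebf2, normally raises the enzymes of this pathway together. Srebf2 rose, from 88.1 to 123 (median 101) CPM to 301, 263 and 255 (log2 fold change 1.40, SE 0.16, adjusted p = 0.00013). Pmvk, phosphomevalonate kinase, fell from 197 to 307 (median 273) CPM to 107, 122 and 150 (log2 fold change -1.06, SE 0.17, adjusted p = 0.00186), and Fdps, farnesyl diphosphate synthase, from 981 to 1210 (median 1102) CPM to 737, 762 and 748 (log2 fold change -0.54, SE 0.09, adjusted p = 0.0028). Fdft1, squalene synthase, fell too (log2 fold change -0.56, SE 0.12, adjusted p = 0.011) but not without carmofur 14 (adjusted p = 0.0698) or carmofur 15 (0.077). The number of falls was 3 without carmofur 13, 3 without carmofur 14 and 2 without carmofur 15. In fatty acid synthesis 1 of 21 genes fell, beside 2.23% lower among all genes. It was the desaturase Scd2, which went from 593 to 943 (median 698) CPM to 390, 407 and 499 (log2 fold change -0.76, SE 0.15, adjusted p = 0.00802). The Scd2 call was lost without carmofur 13 (adjusted p = 0.0638) or carmofur 14 (0.06). None of 24 fatty acid oxidation and PPAR genes passed, beside 5.33% called among all genes, and nothing is read from so short a list.

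Metallothioneins, small cysteine-rich proteins that bind zinc and copper and respond to free metal, fell in 3 of 7 genes tested, in every omission. Mt1 was at 955, 947 and 840 CPM with carmofur and 1375 to 1645 (median 1506) CPM in controls (log2 fold change -0.74, SE 0.09, adjusted p = 0.000156). Mt2 was at 116, 115 and 98.4 CPM against 242 to 305 (median 256) CPM (log2 fold change -1.28, SE 0.14, adjusted p = 0.000103), and Mt4 at 186, 186 and 172 CPM against 300 to 399 (median 344) CPM (log2 fold change -0.94, SE 0.14, adjusted p = 0.000757). No treated library overlapped a control in any of the 3. In the NRF2 list, 3 of 38 rose and 1 fell (3 and 0 against controls 7 to 9 alone, 3 and 2 against controls 10 to 12 alone). Among all genes 3.1% were higher and 2.23% lower. The fall was Slc7a11, which also belongs to the stress response and amino acid transporter lists above. Gpx1, glutathione peroxidase, rose from 101 to 177 (median 145) CPM to 336, 278 and 306 (log2 fold change 1.09, SE 0.16, adjusted p = 0.000863). Prdx1 was at 8688, 8959 and 9241 CPM against 6888 to 8153 (median 7266) CPM (log2 fold change 0.27, SE 0.06, adjusted p = 0.0227) and lost its call without carmofur 13 (adjusted p = 0.0636), carmofur 14 (0.0757) or carmofur 15 (0.112). The list had 1 rise without carmofur 14 or carmofur 15. Nqo1, a classical target, was not past the threshold (adjusted p = 0.847).

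Messages of the mitochondrial genome split by gene. Of 13 tested, 3 fell and 1 rose. mt-Co1, a cytochrome oxidase subunit, was at 1196, 1214 and 1107 CPM with carmofur and 1605 to 1919 (median 1837) CPM in controls (log2 fold change -0.63, SE 0.09, adjusted p = 0.000382). mt-Co2 was at 2824, 2749 and 2863 CPM against 3773 to 4144 (median 3975) CPM (log2 fold change -0.49, SE 0.07, adjusted p = 0.000337). mt-Cytb, of complex III, was higher, at 17695, 19013 and 17757 CPM against 13690 to 15590 (median 14504) CPM (log2 fold change 0.32, SE 0.06, adjusted p = 0.00368). All 3 separated the groups. mt-Co3 fell by 0.31 on the log2 scale and lost its call in 7 of 9 omissions (adjusted p up to 0.175 without carmofur 15). Controls 10 to 12 were lower than controls 7 to 9 in 3 of these 13 messages. Against controls 7 to 9 alone 1 of the 13 rose and 6 fell, and against controls 10 to 12 alone 3 rose and 4 fell. Of 50 nuclear genes of oxidative phosphorylation 4 rose and 1 fell, beside 3.1% higher and 2.23% lower among all genes. With controls 7 to 9 alone 3 rose and 2 fell, and against controls 10 to 12 alone 10 rose and 1 fell. Atp5g1, an ATP synthase subunit, rose from 1201 to 1724 (median 1406) CPM to 2142, 2492 and 2107 (log2 fold change 0.63, SE 0.11, adjusted p = 0.00358). The number of rises was 2 without carmofur 13, 1 without carmofur 14 and 2 without carmofur 15, and that of falls 0 without carmofur 13, carmofur 15 or control 12 and 2 without carmofur 14 or control 10.

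Single genes of other lists also passed. Among lysosomal genes 1 of 41 rose and among proteasome genes 2 of 41, beside 3.1% of all genes. Nothing is read from counts this small about those lists. Of 21 interferon and class I presentation genes 2 rose in every omission: H2-T23, a non-classical class I molecule, from 137 to 219 (median 180) CPM to 374, 325 and 318 (log2 fold change 0.89, SE 0.16, adjusted p = 0.00278), and Xaf1, an interferon-induced protein, from 76.7 to 120 (median 98.1) CPM to 186, 195 and 179 (log2 fold change 0.93, SE 0.18, adjusted p = 0.00656). Ctsl, cathepsin L, was the riser among 41 lysosomal genes (2 rose against either control set alone, and 2 fell against controls 10 to 12), at 1389, 1382 and 1241 CPM with carmofur and 474 to 775 (median 603) CPM in controls (log2 fold change 1.13, SE 0.14, adjusted p = 0.00016). Psmc5, an ATPase of the proteasome cap, rose from 280 to 366 (median 312) CPM to 553, 552 and 538 (log2 fold change 0.77, SE 0.12, adjusted p = 0.000896), 1 of 2 risers among 41 subunits, and the other, Psmc4, lost its call without carmofur 13 (adjusted p = 0.0758), carmofur 14 (0.0589) or carmofur 15 (0.118). Against controls 7 to 9 alone 2 subunits rose and 2 fell, and against controls 10 to 12 alone 7 rose. Itgb6, an integrin of injured epithelium that activates TGF-beta, rose from 6.4 to 23.7 (median 11.2) CPM to 44.5, 76.8 and 60.1 (log2 fold change 2.27, SE 0.41, adjusted p = 0.00349), 1 of 2 risers among 23 matrix and mesenchymal genes, with Spp1. Among variant and linker histones 2 of 10 fell, H3f3a and H1f0. H3f3a fell from 368 to 571 (median 483) CPM to 267, 266 and 320 (log2 fold change -0.73, SE 0.14, adjusted p = 0.00635) and lost its call without carmofur 13 (adjusted p = 0.0521) or carmofur 14 (0.0533). H1f0, a linker histone of resting cells, had 69.3, 31.9 and 48.5 CPM against 74.4 to 170 (median 131) CPM (log2 fold change -1.35, SE 0.31, adjusted p = 0.0186) and lost its call without carmofur 14 (adjusted p = 0.103) or carmofur 15 (0.0837). Poly(A) selection misses most histone messages, which lack a tail.

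The steepest rises were from near 0. Ano1, a calcium-activated chloride channel, was at 25.2, 12.4 and 7.36 CPM with carmofur, while all 6 controls had at most 0.445 CPM. Ccl20, an epithelial chemokine, was at 17.2, 15.9 and 11.3 CPM against at most 0.594. Cnfn, a cornified envelope protein, was at 31, 13 and 13.8 CPM against at most 0.384, Klk10, a secreted protease, at 10.7, 43.1 and 20 CPM against at most 0.89, and Wdr46, a nucleolar protein, at 18.2, 20 and 4.63 CPM against at most 0.874. The controls of these 5 held a handful of counts, so no fold is given. Their adjusted p were 0.00717, 0.00847, 0.00148, 0.0037 and 0.0191 in that order. Ano1 and Ccl20 lost the call without carmofur 13 (adjusted p = 0.0758 and 0.0502), Klk10 without carmofur 14 (0.0715), and Wdr46 without carmofur 13 (0.103) or carmofur 14 (0.119). Serpinb7, a clade B serpin, rose from 0.891 to 19.7 (median 9.42) CPM to 146, 102 and 85.4 (log2 fold change 3.70, SE 0.65, adjusted p = 0.00309), with a call that no omission removed. S100a7a, an epithelial calcium-binding protein, rose from 1.15 to 21.9 (median 9.5) CPM to 110, 47.7 and 89.8 (log2 fold change 3.06, SE 0.62, adjusted p = 0.00818) and lost the call without carmofur 13 (adjusted p = 0.0624). Aoc1, diamine oxidase, rose from 0.148 to 7.93 (median 3.8) CPM to 46.1, 45.3 and 47.5 (log2 fold change 3.53, SE 0.79, adjusted p = 0.0156) and lost it without carmofur 13 (0.0653), carmofur 14 (0.0605) or carmofur 15 (0.07).

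Of the steepest falls, 5 were to near 0. Smarcc2, a BAF chromatin remodelling subunit, was at 0.627, 0.56 and 0.526 CPM with carmofur and 7.87 to 28.7 (median 21.8) CPM in controls (adjusted p = 0.00102). Spata5, an ATPase of ribosome maturation, was at 0, 0.14 and 0.105 CPM against 1.34 to 28.5 (median 16) CPM (adjusted p = 0.00607). Neither lost its call when 1 library was left out. Bbof1, Intu and Fez2 were also at no more than 0.315 CPM in any treated library, from control medians of 7.47, 6.64 and 8.46 CPM, but their calls were lost without carmofur 13 (adjusted p = 0.0787, 0.0809 and 0.0724) or carmofur 14 (0.0778, 0.086 and 0.0859), those of Intu and Fez2 also without carmofur 15 (0.0949 and 0.0759), and that of Fez2 without control 8 (0.0603). Trappc6a, a vesicle tethering subunit, fell from 36.6 to 56.7 (median 46.5) CPM to 16.6, 7.83 and 4.84 (log2 fold change -2.25, SE 0.43, adjusted p = 0.00548). Fut8, the enzyme of core fucosylation, fell from 37.6 to 71.7 (median 61.5) CPM to 1.57, 19.9 and 13.4 (log2 fold change -2.35, SE 0.56, adjusted p = 0.0227), a call lost without carmofur 15 (adjusted p = 0.082). Yif1b, a Golgi protein, fell from 16.3 to 44.2 (median 18.6) CPM to 1.88, 2.94 and 4.31 (log2 fold change -2.95, SE 0.63, adjusted p = 0.0122), a call lost without carmofur 13 (0.0622) or carmofur 14 (0.0546). Il13ra1, an interleukin receptor chain (log2 fold change -2.77, SE 0.73, adjusted p = 0.0369), lost its call in 6 of 9 omissions (up to 0.135 without carmofur 14). Aldh1l2, a mitochondrial folate enzyme (log2 fold change -2.55, SE 0.64, adjusted p = 0.028), lost it in 5 of 9 (up to 0.122 without carmofur 14).

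The carmofur effect of the third block was then set against that of the first 2 blocks, each measured against its own controls in a fit over all 27 libraries. The 2 earlier blocks together called 868 of 13114 genes (6.62%), 497 higher (3.79%) and 371 lower (2.83%). Of the 588 calls of the third block, 327 were also called there in the same direction and 0 in the opposite one, which is 55.6% of the third block's calls and 39.3% of the 832 calls of the earlier blocks among genes tested in both. Of the 342 rises 319 had a positive value in the earlier blocks, and of the 246 falls 226 had a negative value. Across the 8483 genes with at least 5 CPM, Pearson's r between the log2 fold changes was 0.35, and it was 0.22 across all 11019 genes tested in both, a description over genes, which are not independent and share the experiment's library type. Asns and Hspa5 fell alike in both (-1.56 and -1.26 in the third block, -1.41 and -1.27 in the earlier ones), and Car1 and Spp1 rose in both (1.15 and 2.38 in the earlier ones). Ano1, the steepest rise above, stood at 0.17 in the earlier blocks, and the test of that difference gave an adjusted p of 0.102.

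**Figure D4:**
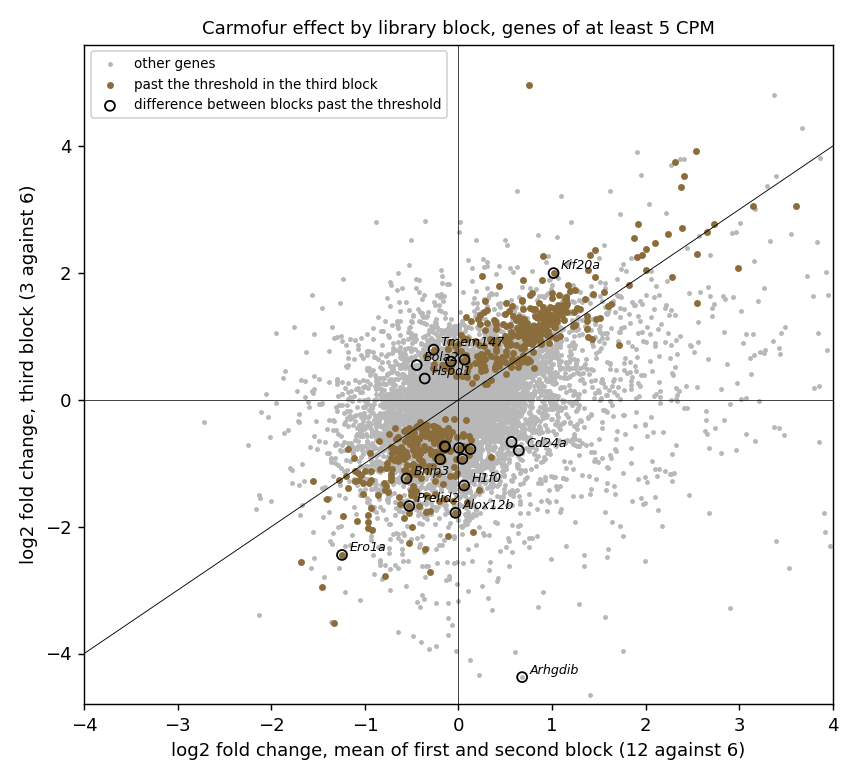
Log2 fold change of carmofur over control in the third block (vertical, 3 against 6 libraries) against the mean of the first and second blocks (horizontal, 12 against 6), for genes of at least 5 CPM; brown points passed the threshold in the third block, open circles mark genes whose difference between blocks passed, and the line is equality. Most called genes lie at the lower left or upper right, and Ero1a and Kif20a lie further from 0 in the third block.

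The difference between the blocks passed the threshold for 21 of 13114 genes (0.16%), 7 with a higher value in the third block and 14 with a lower one. The median difference of all genes was -0.19. In the hypoxia and glycolysis list 4 of 35 genes had a lower value in the third block than the mean of the first 2 blocks. These were Ero1a, Bnip3, Bnip3l and Pgk1, the last named after its values were seen. None of the 4 differed from the first block alone (adjusted p from 0.377 to 0.49). All 4 differed from the second block alone (adjusted p at most 0.00564). The list's median was -0.93 here and -0.29 in the earlier blocks. Levels in this fit, which has its own scaling, are given as mean CPM ± SD. Ero1a went from 575 ± 76.4 to 208 ± 67.3 in the first block, 774 ± 92.1 to 382 ± 79.3 in the second block, 572 ± 75.6 to 104 ± 15.4 in the third block (difference -1.22, SE 0.25, adjusted p = 0.0272). The carmofur mean was below the control mean in every block, furthest in the third. Bnip3l went from 804 ± 55.4 to 551 ± 58.4 in the first block, 828.8 ± 66.5 to 922 ± 63.7 in the second block, 971 ± 70 to 501 ± 48.7 in the third block (difference -0.76, SE 0.13, adjusted p = 0.00523). The carmofur mean was below the control mean in the first block and the third and above it in the second. Selenok, in the chaperone list, went from 1466 ± 90.5 to 1066 ± 104 in the first block, 1327 ± 64.3 to 1487 ± 113 in the second block, 1638 ± 108 to 975 ± 65.2 in the third block (difference -0.60, SE 0.11, adjusted p = 0.0101). It had the same pattern as Bnip3l. Pgk1 had it too, from 2427 ± 77 to 1904 ± 253 in the first block and 2281 ± 229 to 2387 ± 197 in the second. In the third block Pgk1 went from 2496 ± 270 to 1476 ± 157. Controls numbered 3 in each of the first and second blocks and 6 in the third, and carmofur libraries 6, 6 and 3.

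Other genes singled out by this test were a mixed set. Kif20a went from 108 ± 24.3 to 219 ± 22.1 in the first block, 106 ± 8.95 to 212 ± 38.1 in the second block, 102 ± 19.9 to 404 ± 42.4 in the third block (difference 0.97, SE 0.21, adjusted p = 0.0433). Its carmofur mean was above the control mean in every block, by most in the third. Hspd1, the mitochondrial chaperonin, went from 858 ± 104 to 957 ± 81.5 in the first block, 1135 ± 139 to 618 ± 78.8 in the second block, 1141 ± 155 to 1425 ± 59.2 in the third block (difference 0.68, SE 0.14, adjusted p = 0.0272). Its carmofur mean was below the control mean in the second block only. Cd24a, a glycosylated surface protein, went from 120 ± 3.65 to 183 ± 21.9 in the first block, 109 ± 23 to 175 ± 35.4 in the second block, 51.6 ± 12.7 to 29.2 ± 4.06 in the third block (difference -1.46, SE 0.26, adjusted p = 0.0101). Its control mean in the third block was below that of the other blocks. Alox12b, an epidermal lipoxygenase, went from 138 ± 34.2 to 67.9 ± 22 in the first block, 117 ± 41 to 226 ± 24.4 in the second block, 153 ± 26.1 to 44.1 ± 14.4 in the third block (difference -1.77, SE 0.32, adjusted p = 0.0101). Tested against the first block alone, 0 genes differed by edgeR, while 1035 genes had an unadjusted p under 0.05, DESeq2 called 28 and limma-voom 3. Against the second block alone 150 differed by edgeR, 78 higher and 72 lower, and all 21 genes were among them. The count of 21 became 2 without carmofur 13, 5 without carmofur 14, 6 without carmofur 15, 9, 10 and 11 without control 10, 11 or 12, and 6 without control 1 and carmofur 8 and 10, the shallow libraries of the earlier blocks. None of the 11 differences named by rule kept its call in every omission.

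The 6 controls of the third block form 2 sets of consecutive library numbers, and these were compared to show how far control sets differ. Controls 10 to 12 differed from controls 7 to 9 in 104 of 11039 genes (0.942%), 11 higher (0.0996%) and 93 lower (0.842%). The lower genes included mitochondrial and ribosomal messages. mt-Nd1 averaged 3857 ± 114 CPM (SD, n = 3) in controls 7 to 9 and 2574 ± 78.3 in controls 10 to 12. Npm1, a nucleolar protein, averaged 1612 ± 118 and 1031 ± 17.2 CPM. Both were picked for their low p after the values were seen. Reg4, a secretory cell lectin, was at most 0.755 CPM in controls 7 to 9 and 50, 28.1 and 32.4 CPM in controls 10 to 12, with 4.86, 6.57 and 2.63 CPM in the carmofur libraries between them. Rnf186, an intestinal ubiquitin ligase, averaged 84.9 ± 5.64 and 218 ± 15.9 CPM. With scaling by library size alone the median of all genes moved to 0.10, the count was 34 (16 higher and 18 lower) and the lower ribosomal protein genes numbered 2 in place of 23. The count was 63 without control 7, 33 without control 8, 66 without control 9, 31 without control 10 and 47 without control 11. The carmofur comparison shares these control libraries. Unc13d, a vesicle priming protein, averaged 156 CPM in controls 7 to 9, 92.6 CPM in controls 10 to 12 and 379 ± 17.8 CPM with carmofur, so the treated mean lay above both control sets.

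**Figure D5:**
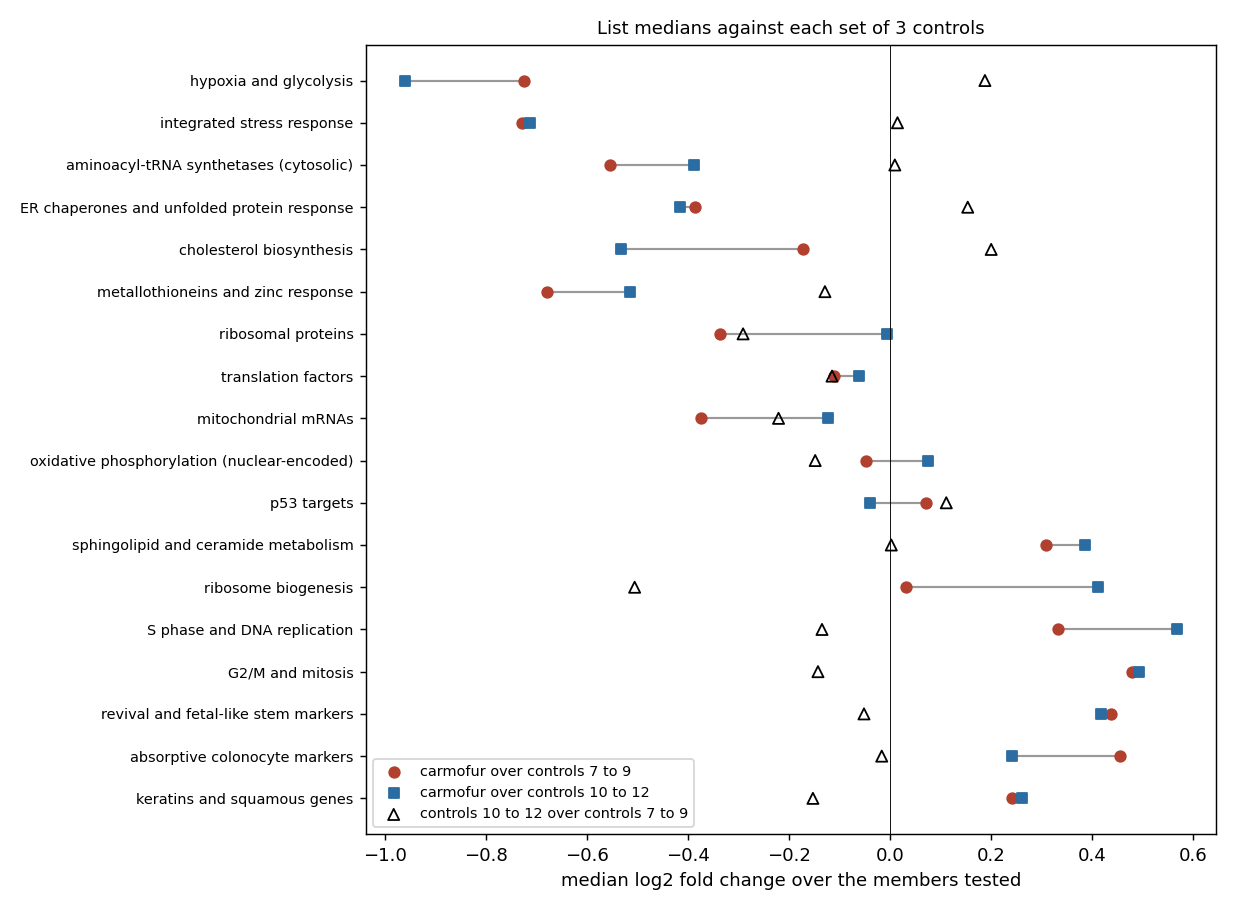
Median log2 fold change over the tested members of 18 gene lists for carmofur over controls 7 to 9 (red circles), carmofur over controls 10 to 12 (blue squares), and controls 10 to 12 over controls 7 to 9 (open triangles). The stress response and mitosis medians are alike against both control sets, whereas the ribosomal protein median is -0.34 against one and -0.01 against the other.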

How the data were processed

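Estimated counts per gene had been made by the authors with Salmon 1.3.0 on the mm10 assembly, per the submitters' processing notes, and were deposited as whole numbers for 35 libraries and 54354 genes; the annotation they used is not given in the sources used here. Salmon divides reads shared by similar genes by estimate, which makes values of near-identical copies uncertain. The 1243 genes without a symbol held 0.0165% of the counts of the 9 libraries. Symbols were read from the deposited table and positions from GENCODE M21 (51528 genes matched).

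The gene lists and the genes in them were chosen with earlier results of these data known. The deposited estimated counts were filtered with filterByExpr, scaled with TMM factors and tested with edgeR 4.0.16 (robust quasi-likelihood F test, Benjamini-Hochberg adjustment, threshold 0.05; every adjusted p in the text is from it unless another tool is named) in R 4.3.3. Carmofur was compared with both control sets together, on 9 libraries. The difference between blocks was a contrast in a fit of all 27 carmofur and control libraries with a group for each treatment and block. Control sets were compared on the same 9 libraries. Fold changes are log2 and CPM values use the TMM factors. Named genes were, for the carmofur comparison, the 12 largest rises and 12 largest falls of at least 5 mean CPM without overlap, up to 4 members of lowest p in each list, and genes fixed by name. For the difference between blocks they were the largest differences each way, and the same for the control sets. Predicted genes and symbols shared by several identifiers were left out. A few named items are not reported here. Alternatives were DESeq2 1.42.0, limma 3.58.1 with voom, RLE and library-size scaling, other filters, a minimum fold change, each control set alone and the omission of each library. The scripts were tested on simulated counts first. A floor of 3 counts was used, and no fold is given where all libraries of a group lay near or below it. Aoc1, Krt13, Krt14, Krt20 and Trib3 had some libraries below it, so the sizes of their fold changes are uncertain.

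The library totals of 4156184 to 9541618 counts limit what low genes can show, and PCR reads without molecular identifiers are not independent molecules, so floors cover counting error only.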

Additional observations from a re-analysis of the deposited data

Results flagged for a closer look

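In the first group of results, 1 control library stood apart from the other 5 by a gap that Dixon's criterion at the 95% level picks out. This happened for 5 of 105 named genes with a call, and chance alone picks out about 5% of such groups. Ano1 was at 0.445 CPM in control 12, the highest of controls that were otherwise at or near 0. Ftsj3 was at 97.8 CPM in control 9, Itgb6 at 23.7 CPM in control 8, Krt14 at 6.36 CPM in control 7 and Mcm4 at 42.7 CPM in control 10.

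In the second group, the carmofur effect of the third block differed from that of the first and second blocks by the contrast of the effects in the 27-library edgeR fit. Of these differences 5 were positive on the log2 scale: Tmem147 by 1.04, Bola2 by 0.98, Kif20a by 0.97, Hspd1 by 0.68 and Atp5g1 by 0.55. The other 6 were negative: Arhgdib by -5.04, Alox12b by -1.77, Cd24a by -1.46, H1f0 by -1.43, Dapl1 by -1.25 and Ero1a by -1.22. Arhgdib was near 0 in the third block's carmofur libraries, so its fitted value depends on the prior count and is not a fold.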

How the results depend on the processing

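No paired analysis was possible because the carmofur libraries (replicates 13 to 15) share no replicate number with the controls (7 to 12). The count of 588 genes became 988 with DESeq2 and 16 when a minimum log2 fold change of 1 was tested, and lay between 305 and 583 when 1 library was left out. The count of 21 differences between blocks became 106 with DESeq2, 46 with limma-voom, 11 without the filter on low counts, 0 against the first block alone and 150 against the second alone. It lay between 2 and 29 with 1 library left out, and was 6 without control 1 and carmofur 8 and 10, an omission chosen after seeing the data. The count of 104 between control sets became 34 with library-size scaling and 536 with DESeq2, and lay between 31 and 73 with 1 library left out. Library-size scaling raised the positive differences between blocks from 7 to 11 and left the total of 588 within 1.5 times. No named gene reversed its direction in any of these settings. Of 105 named calls, 57 were kept in every setting and 61 in every omission of a library. Treatment and library run cannot be told apart within the block.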
